A study of Mus musculus with 11 samples.

Results

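Vwf and 5 other genes known from endothelial cells, Kdr, Egfl7, Pecam1, Cdh5 and Tek, were followed in cultured mouse macrophages. The 6 genes were found by their gene names among 55487 gene IDs in the deposited count table, each on 1 ID (Vwf ENSMUSG00000001930, Kdr ENSMUSG00000062960, Egfl7 ENSMUSG00000026921, Pecam1 ENSMUSG00000020717, Cdh5 ENSMUSG00000031871 and Tek ENSMUSG00000006386). They had been chosen from earlier results of the comparison described here, so their own differences between the groups are given as a description, without a test. The question was whether Vwf moves together with other endothelial genes in these cultures. Leg bone marrow of C57BL/6J mice aged 2 to 5 months was grown for 5 to 6 days with 10% CMG-conditioned media, a usual source of the macrophage growth factor M-CSF, and then kept in 2%. All 11 libraries share this strain and culture. The 7 control libraries came from macrophages without added CYR61, and the 4 CYR61 libraries from macrophages given 0.5 µg/ml CYR61 for 24 h. CYR61 (CCN1) is secreted, stays with the extracellular matrix and acts on cells through integrins. A vehicle for the control cells, pooling of animals and the origin of the libraries in separate cultures are not stated in the labels. The p-values thus measure the spread between these libraries alone, and it may be technical.

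Von Willebrand factor, the product of Vwf, is a large multimeric glycoprotein that endothelial cells store in Weibel-Palade bodies and megakaryocytes store in the alpha granules of platelets. In blood it tethers platelets to exposed collagen and carries coagulation factor VIII, and macrophages of liver and spleen take it up and degrade it. KDR (VEGFR2) and TEK (TIE2) are receptor tyrosine kinases of blood vessels, for VEGF and for angiopoietins. EGFL7 is a protein secreted by endothelial cells that acts on Notch signalling. Cadherin 5 (VE-cadherin) and PECAM-1 join neighbouring endothelial cells, and PECAM-1 is also carried by platelets and several leukocytes.

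Egfl7 is also the host gene of the endothelial microRNA miR-126, whose mature sequence is printed because that microRNA is the best known product of the locus besides the protein. It is taken from RefSeq (mouse build GRCm38.p6), 5′ to 3′, with the seed, bases 2 to 8, in capitals.
mmu-miR-126a-3p: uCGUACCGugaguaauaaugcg
The rows of Mir126a and Mir126b held 0 counts in each of the 11 libraries, which allows at most 3 counts per library, a level of 0.14 to 0.197 CPM (counts rescaled so that each library has an equal total). A mature microRNA of 22 bases may not be captured by the library protocol, and no small RNA library was analysed here.

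The libraries held 14912123 to 21047654 estimated counts, and no pair of one group was alike within sampling noise. CYR61 replicate 4 stood apart: its pairs with the other CYR61 libraries had a chi-square per gene of 17.3 to 30, against 2.76 to 9.68 in all other pairs within a group. In CYR61 replicate 4 ribosomal RNA took 2.41% of the counts, against 0.246 to 0.562% in CYR61 replicates 1 to 3. Levels are CPM scaled by the TMM method, which corrects for differences in library composition. All 12 macrophage markers passed the filter on low counts, and their summed level was 23407 to 24770 CPM in controls and 25879 to 27999 CPM with CYR61. Most of this sum was 1 gene, Lyz2, at 17244 ± 495 CPM in controls and 19563 ± 860 with CYR61.

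Vwf was well measured in these macrophages. Its count ran from 2040 to 3215 per library. In control cells its level was 146 ± 5.09 CPM (SD, n = 7), with 139 CPM in the lowest library, a median of 147 and 152 in the highest. The control libraries thus lay close together, with a coefficient of variation of 3.50%. By CPM, Vwf ranked 1170 of the 15135 genes that passed the filter on low counts, which is the 92.3rd percentile. Vwf has a long transcript (8834 bases for the longest coding transcript), and per kilobase of transcript it stood lower, at the 76.0th percentile. The table gives 1 count per gene, so which exons or transcript forms carried the reads is not known.

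The receptors stood far below Vwf. Kdr had 66 to 119 counts per library and a control level of 4.88 ± 0.684 CPM (SD, n = 7), with a lowest value of 4.12, a median of 4.74 and a highest of 5.84. That is low but present in each library. Tek was near the limit of detection: its control libraries 1 to 7 held 0, 1, 0, 0, 1, 1 and 2 counts, and its CYR61 libraries 1 to 4 held 0, 0, 3 and 0. No Tek count passed 3, and 5 of the 11 libraries had any.

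Among the secreted and junctional proteins, Egfl7 had 65 to 111 counts per library. Its control level was 5.24 ± 0.534 CPM (SD, n = 7), from 4.79 through a median of 5.00 to 6.23. Egfl7 overlaps Agpat2, an enzyme gene of phospholipid synthesis on the opposite strand (35.1 ± 0.916 CPM in controls) in the GENCODE M21 annotation, and the labels do not state strand-specific counting, so reads in the overlap cannot be told apart. Cdh5, whose protein holds endothelial junctions together, had 6, 10, 6, 2, 7, 4 and 7 counts in controls 1 to 7 and 10, 5, 4 and 6 in the CYR61 libraries. Pecam1 had 3, 8, 1, 5, 5, 2 and 8 counts in controls and 1, 8, 4 and 5 with CYR61. For both genes the groups overlapped fully, and no library passed 10 counts.

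**Figure D1:**
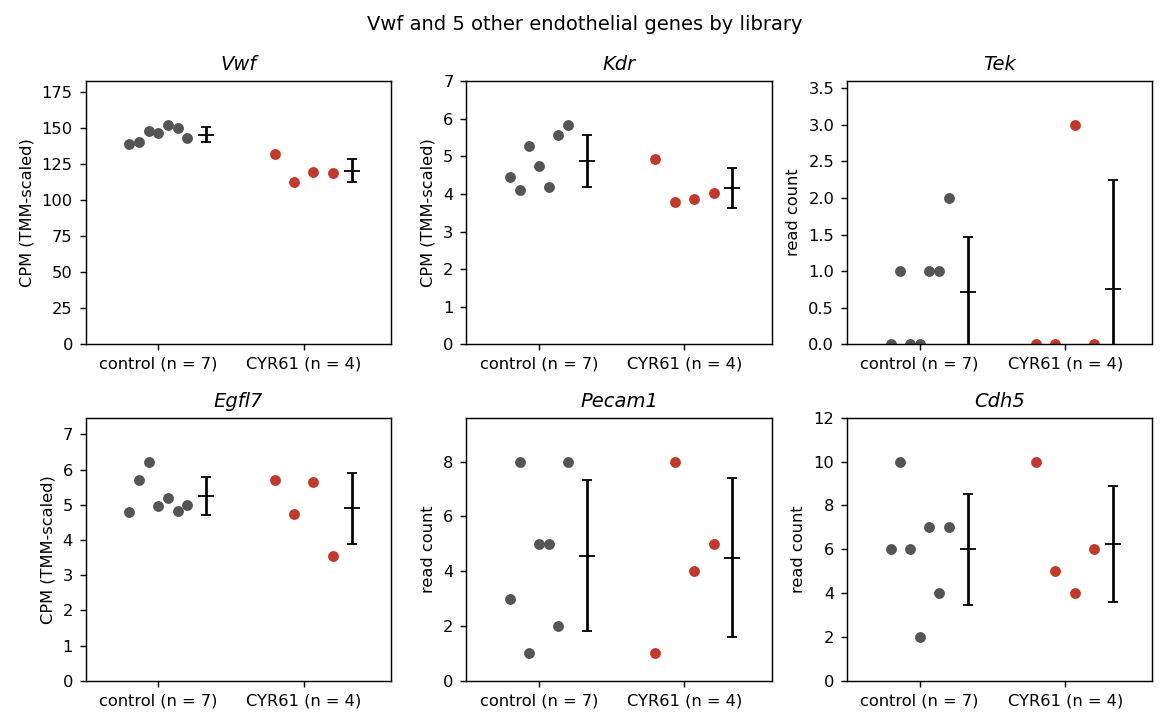
Levels of the 6 genes in each library (points; control grey, CYR61 red), with the group mean and SD beside them; Vwf, Kdr and Egfl7 are in TMM-scaled CPM and Tek, Pecam1 and Cdh5 in read counts per library. For Vwf the 4 CYR61 points lie below the 7 control points, and for the other 5 genes the groups overlap.

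Compared per kilobase of transcript, the control level of Vwf was 20.0 times that of Kdr (16.4 to 24.5 over the libraries) and 4.37 times that of Egfl7 (3.74 to 4.91). With the length of all exons joined in place of the longest coding transcript, a choice made after seeing the data, these ratios were 16.8 and 6.19. Against Pecam1 the ratio was 233 and against Cdh5 203 by the first length, and 232 and 117 by the second. The order of the control levels per kilobase was therefore Vwf, Egfl7, Kdr, then Cdh5 (0.0814 ± 0.0346) and Pecam1 (0.0708 ± 0.0405 CPM per kilobase, SD, n = 7), which do not differ beyond their spread, with Tek last. The first 3 are at 16.5 ± 0.576, 3.77 ± 0.384 and 0.824 ± 0.116 CPM per kilobase, further apart than their spread.

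Genes that define endothelial cells were almost not detected in the libraries that held Vwf. Of 30 defining endothelial genes, 1 passed the filter on low counts, 20 had at most 3 counts in any library and 28 at most 10. Erg, an endothelial transcription factor, and Clec14a and Mmrn1, an endothelial surface protein and a protein stored with von Willebrand factor, held 0 counts in each of the 11 libraries. The gene that passed was Stab2, a scavenger receptor of sinusoidal endothelium, with at most 42 counts. Summed over the 30 genes, the libraries held 42 to 82 counts in controls and 58 to 72 with CYR61, that is 2.64 to 4.13 and 2.86 to 3.99 CPM. The Vwf count alone was 8.50 to 11.2 times the summed count of 35 other genes, the 30 and the other 5 chosen genes, in each library. This ratio is not corrected for transcript length. Most of the sum was Kdr and Egfl7, for example 68 and 73 of 192 counts in control 1.

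**Figure D2:**
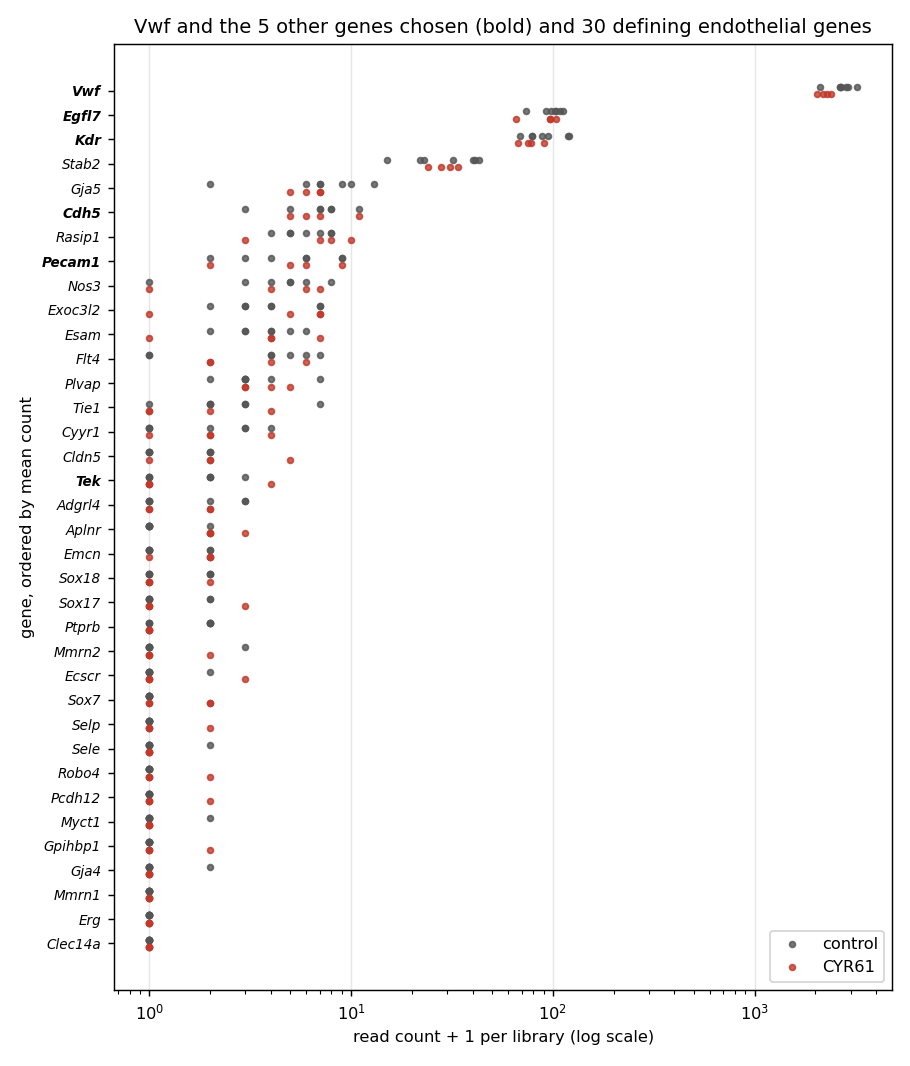
Read count plus 1 per library on a log axis (control grey, CYR61 red) for Vwf and the other 5 chosen genes (bold) and 30 defining endothelial genes, ordered by mean count. Vwf stands at 2040 to 3215 counts, Egfl7 and Kdr at 65 to 119, Stab2 at 14 to 42 and the rest at 12 or fewer.

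Vwf was lower in macrophages given CYR61. The 4 CYR61 libraries stood at 132, 112, 120 and 119 CPM (120.7 ± 8.14, SD, n = 4), each below the lowest control library at 139 CPM. The log2 fold change was -0.27 (SE 0.040, 95% interval -0.36 to -0.19), a level of 0.828 times control. CYR61 replicate 1 lay nearest to the controls and replicate 2 farthest from them. Without CYR61 replicate 4, the library that stood apart, the log2 fold change of Vwf was -0.26. In bulk RNA, fewer cells that express a gene and less RNA per cell cannot be told apart.

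For the other 2 of the 6 genes that passed the filter the groups overlapped. Kdr stood at 4.93, 3.80, 3.87 and 4.04 CPM in the CYR61 libraries (4.16 ± 0.525, SD, n = 4), a log2 fold change of -0.24 with a wider error (SE 0.122, 95% interval -0.49 to 0.021). Only CYR61 replicate 1 lay above the control median; the other 3 lay below the lowest control library, and without CYR61 replicate 4 the log2 fold change of Kdr was -0.22. Egfl7 stood at 5.71, 4.73, 5.63 and 3.55 CPM (4.91 ± 1.01), a log2 fold change of -0.098 (SE 0.124, 95% interval -0.36 to 0.16). CYR61 replicate 4, the library with the highest ribosomal RNA share, held the lowest Egfl7 level of the 11, and without it the log2 fold change was 0.03, of the opposite sign. The part of ribosomal RNA in this value was not tested. Cdh5, Pecam1 and Tek did not pass the filter; without one, their log2 fold changes were 0.078, -0.0064 and 0.11, on at most 10 counts per library.

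Across all genes tested by edgeR's quasi-likelihood test with Benjamini-Hochberg adjustment (adjusted p under 0.05), 1204 of 15135 were called, 7.96%, with 806 higher (5.33%) and 398 lower (2.63%). In 379 genes, 2.5%, the 4 CYR61 libraries all lay below the 7 control libraries. Of the 6 chosen genes 3 were tested and 1, Vwf, was called, as lower, and Vwf was also the 1 whose groups did not overlap in that direction. As the genes were chosen by this comparison, nothing is read from that count. Over all tested genes the log2 fold change had a median of -0.0076. With scaling by library size alone it was -0.052 and 36.1% of the calls were higher in place of 66.9%, and Vwf then had a log2 fold change of -0.32. In the authors' deposited table the log2 fold changes were -0.3 for Vwf, -0.249 for Kdr and -0.159 for Egfl7. The limits given there were -0.372 to -0.227, -0.482 to -0.0162 and -0.431 to 0.114. The upper limit of Kdr was thus negative there, and positive here at 0.021. The other 3 genes were not among the rows of that table.

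Whether Vwf moved with the other endothelial genes was first asked among the 7 control libraries, whose spread around their own mean is separate from the difference between the group means. No relation of Vwf with Kdr was detected there (Pearson r = 0.189, exact permutation p = 0.668; Spearman coefficient 0.179, exact p = 0.713; 5040 pairings, two-sided). Without controls 1 and 2, the libraries farthest from the median of Vwf, r was -0.639, so its sign rested on those libraries. Vwf and Egfl7 had r = 0.0624 (exact permutation p = 0.896; Spearman coefficient 0.25, exact p = 0.595), and 0.0512 without controls 1 and 2. For the sum of the 30 defining endothelial genes r was 0.401 (exact permutation p = 0.354; Spearman coefficient 0.536, exact p = 0.236), and 0.273 without them. Benjamini-Hochberg adjustment over the 3 relations gave p = 0.896 for each r in these exact permutation tests, and 0.713, 0.713 and 0.707 for the Spearman coefficients. Vwf varied by only 3.50% among the controls, while counting error alone was 10.4% of the level for Kdr and 10.1% for Egfl7. The 30 defining genes held only 42 to 82 summed counts per control library. With 7 libraries even a close relation could thus be hidden, so these r do not decide whether Vwf moved with the other genes.

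The ratio within a library gives the same question over both groups. The log2 ratio of Vwf to Kdr in CPM was 4.91 ± 0.198 in controls (SD, n = 7) and 4.86 ± 0.088 with CYR61 (n = 4), a difference of -0.046 that lies within the spread. For Vwf to Egfl7 it was 4.80 ± 0.147 and 4.64 ± 0.289, a difference of -0.16 with overlapping groups. The summed count of the 35 endothelial genes was 192 to 313 in controls and 211 to 275 with CYR61, and the Vwf count was 9.23 to 11.2 and 8.50 to 10.3 times that sum. These ratios therefore do not separate Vwf from Kdr or Egfl7, whose counting error (10.4% and 10.1% of the level, against 1.92% for Vwf) is far larger than that of Vwf.

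**Figure D3:**
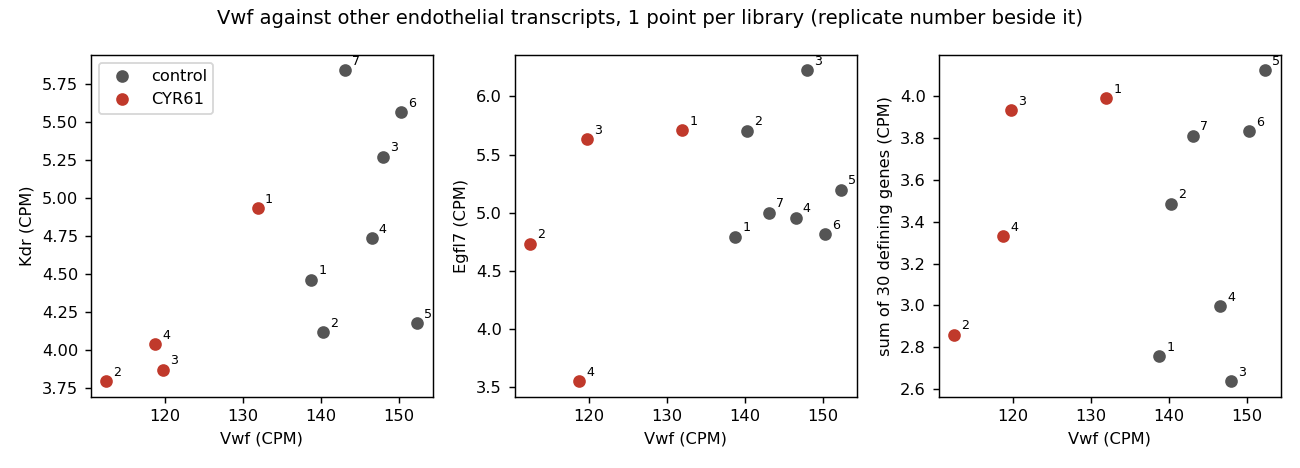
Level of Vwf (horizontal, CPM) against Kdr, Egfl7 and the sum of 30 defining endothelial genes (vertical, CPM), 1 point per library with its replicate number (control grey, CYR61 red). The CYR61 points lie to the left, at 112 to 132 CPM of Vwf, and overlap the controls on each vertical axis.

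Of 13349 genes whose mean reached 1 CPM, those whose log2 CPM followed Vwf most closely over the 11 libraries were Tns1 (r = 0.958), Arap2 (0.956), Cit (0.950), Cdc25b (0.938) and Iqsec1 (0.931). These r include the gap between the groups by which Vwf was chosen, and each of the 5 genes was also lower with CYR61 in every library. Tns1, which links actin to integrin adhesions, was at 531 ± 9.56 CPM in controls and 446 ± 17.6 with CYR61. Arap2, a regulator of small GTPases, was at 20.2 ± 0.508 and 15.2 ± 1.31 CPM, and Cit, the citron kinase of cell division, at 49.4 ± 1.99 and 40.8 ± 1.83 CPM. Cdc25b, a phosphatase that activates cyclin-dependent kinases, was at 133 ± 1.40 and 119.9 ± 3.77 CPM, and Iqsec1, an exchange factor for Arf GTPases, at 229 ± 4.24 and 211 ± 7.15 CPM. Among the 7 controls alone, r with Vwf for the 5 genes was 0.217 to 0.535. The call of Iqsec1 (edgeR, Benjamini-Hochberg adjusted p = 0.0218) was lost without CYR61 replicate 2 (adjusted p = 0.103), 3 (0.0634) or 4 (0.0712). Kdr stood at r = 0.658 over the 11 libraries (94.1st percentile of these genes) and Egfl7 at 0.380 (78.2nd), but at the 64.7th and 54.6th percentile in controls.

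Over the controls alone the closest genes were others: Eif4e3 (r = 0.978), Gm15772 (0.963), Dnase1 (0.955), Zfp637 (0.954) and Nipsnap1 (0.953). None of these 5 was called between the groups, and over the 11 libraries their r with Vwf was -0.21 to 0.39. The highest of 13349 r over 7 libraries is picked from many, and no p is given.

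Genes next to Vwf in the GENCODE M21 annotation were described for position only. The nearest on one side was Gm26728, a processed transcript, at 1.22 ± 0.267 CPM in controls and not called (edgeR, Benjamini-Hochberg adjusted p = 0.613). Beyond it the nearest coding gene was Cd9, which encodes a tetraspanin of macrophages, platelets and other cells. Cd9 fell from 277 ± 6.99 to 242 ± 15.3 CPM with non-overlapping groups (log2 fold change -0.19; edgeR, Benjamini-Hochberg adjusted p = 0.00251). On the other side Ano2, a chloride channel gene, had 0 or 1 count per library.

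Genes that endothelial cells share with blood cells were mostly measured and mostly not called. Of 30 such genes 24 were tested, 3 rose and none fell, with a median log2 fold change of -0.017 against -0.0076 over all genes. Of all genes tested, 5.33% were called higher and 2.63% lower. Cav1, the coat protein of caveolae, rose from 13.9 ± 1.17 to 21.3 ± 2.83 CPM (log2 fold change 0.62, edgeR, Benjamini-Hochberg adjusted p = 6.31e-05). Nrp2, a co-receptor for VEGF and semaphorins, rose from 526 ± 18.9 to 573 ± 10.4 CPM (edgeR, Benjamini-Hochberg adjusted p = 0.0188), a call lost without CYR61 replicate 2 (adjusted p = 0.0805). Procr, the endothelial protein C receptor, rose from 16.0 ± 1.68 to 19.2 ± 0.690 CPM (edgeR, Benjamini-Hochberg adjusted p = 0.0249), a call lost without control replicate 5 (adjusted p = 0.0504), CYR61 replicate 3 (0.0618) or CYR61 replicate 4 (0.0821). With scaling by library size alone the balance of this list turned, to 1 gene higher and 3 lower. The calls of Nrp2 and Procr were also lost under that scaling (edgeR, Benjamini-Hochberg adjusted p = 0.147 and 0.0562), with the replicate number as a block (0.120 and 0.149), in the same 8 libraries without the block (0.101 and 0.141) and without CYR61 replicates 1 and 4 (0.0726 and 0.175). At an unadjusted p under 0.05 (edgeR), 5 were higher and 4 lower, the latter Ets1, Flt1, Cd93 and Hhex. DESeq2 called 4 higher and 1 lower. Ets1, also named after its values were seen, was at 4.87 ± 1.00 and 3.41 ± 0.633 CPM with overlapping groups (log2 fold change -0.52, edgeR, Benjamini-Hochberg adjusted p = 0.0577). Flt1, the VEGF receptor 1 gene named after its values were seen, was at 5.02 ± 0.211 and 4.07 ± 0.550 CPM with non-overlapping groups (edgeR, Benjamini-Hochberg adjusted p = 0.0717).

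The 1 tested defining endothelial gene was not called: Stab2 was at 1.57 ± 0.489 CPM in controls and 1.54 ± 0.238 with CYR61 (log2 fold change -0.047, edgeR, Benjamini-Hochberg adjusted p = 0.939). It was not called at an unadjusted p under 0.05, by DESeq2 or by limma-voom either.

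Of 26 genes that make, fold, store or release von Willebrand factor 23 were tested, 4 rose and none fell. The shares over all genes were 5.33% higher and 2.63% lower, and the list had a median log2 fold change of 0.051. Pdia3, a disulfide isomerase of the endoplasmic reticulum, rose from 289.7 ± 8.32 to 348 ± 12.6 CPM (log2 fold change 0.26, edgeR, Benjamini-Hochberg adjusted p = 3.25e-05), and its relative Pdia4 from 65.6 ± 2.91 to 77.6 ± 1.55 CPM. Anxa2, an annexin of regulated secretion, rose from 338 ± 11.7 to 385 ± 13.3 CPM and Rab3d, a GTPase of secretory granules, from 53.8 ± 2.40 to 60.4 ± 0.841 CPM. No gene of this list was lower at an unadjusted p under 0.05, by DESeq2 or by limma-voom. Furin, the protease that removes the propeptide of von Willebrand factor, was at 337 ± 8.53 and 352 ± 13.6 CPM and not called. Genes of Weibel-Palade body traffic, Myrip, Sytl4 and Rab3b, had 0 to 4 counts per library.

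Of 21 genes whose products bind, cleave or clear von Willebrand factor 12 were tested, 1 rose and 1 fell (over all genes 5.33% and 2.63%). Their median log2 fold change was -0.016. Msr1, the class A scavenger receptor of macrophages, rose from 76.3 ± 7.44 to 112 ± 10.4 CPM (log2 fold change 0.55, edgeR, Benjamini-Hochberg adjusted p = 3.04e-05). Itgb3, the integrin beta 3 chain of the platelet fibrinogen receptor, which binds von Willebrand factor, fell from 10.8 ± 0.838 to 7.88 ± 0.798 CPM (log2 fold change -0.46, edgeR, Benjamini-Hochberg adjusted p = 0.00121). Lrp1, a clearance receptor for the factor, was the most abundant of them, at 4845 ± 201 and 4884 ± 252 CPM, and was not called. Adamts13, the protease that cleaves the factor, had 2 to 7 counts per library.

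In the pathway of KDR and TEK, 12 of 21 VEGF and angiopoietin genes were tested. Of these 2 rose and 2 fell (over all genes 5.33% and 2.63%), with a median log2 fold change of -0.071. Vegfa, the main ligand of KDR, fell from 86.1 ± 4.59 to 75.7 ± 6.75 CPM (log2 fold change -0.19, edgeR, Benjamini-Hochberg adjusted p = 0.0289). Angptl2, an angiopoietin-like secreted protein, fell from 103 ± 8.51 to 86.4 ± 5.41 CPM (log2 fold change -0.26, edgeR, Benjamini-Hochberg adjusted p = 0.00626). Besides Nrp2, Dok2, an adaptor that binds TEK, rose from 24.0 ± 2.04 to 27.8 ± 1.07 CPM (edgeR, Benjamini-Hochberg adjusted p = 0.0395). Angpt2, a ligand of TEK, was at 3.41 ± 0.433 and 3.40 ± 0.523 CPM and was not called. The call of Vegfa was lost without control replicate 2 or 3 or CYR61 replicate 2, 3 or 4 (adjusted p from 0.0597 to 0.123, the highest without CYR61 replicate 2). That of Dok2 was lost without any 1 of 8 libraries, controls 1 to 5 and CYR61 1 to 3 (adjusted p from 0.0596 to 0.139).

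Of 16 partners of VE-cadherin and PECAM-1 14 were tested, 3 rose and none fell (over all genes 5.33% and 2.63%). Their median log2 fold change was 0.076. Ptpn6, a phosphatase recruited by PECAM-1 and other inhibitory receptors, rose from 254 ± 8.15 to 282 ± 4.68 CPM (log2 fold change 0.15, edgeR, Benjamini-Hochberg adjusted p = 0.00343). Src, a tyrosine kinase, rose from 4.06 ± 0.553 to 5.69 ± 0.647 CPM (log2 fold change 0.49, edgeR, Benjamini-Hochberg adjusted p = 0.0119). The call of Src was lost with the replicate number as a block (edgeR, Benjamini-Hochberg adjusted p = 0.0907), in the same 8 libraries without the block (0.0873) and without CYR61 replicates 1 and 4 (0.144). Ctnnb1, beta-catenin, rose from 457 ± 12.8 to 491 ± 10.7 CPM (edgeR, Benjamini-Hochberg adjusted p = 0.0364), a call lost without any 1 of 7 libraries, controls 1, 2, 3 and 5 and CYR61 2, 3 and 4 (adjusted p from 0.0544 to 0.118). At an unadjusted p under 0.05, 1 gene was lower, and neither DESeq2 nor limma-voom called one lower.

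Of 15 Notch pathway genes, the pathway on which EGFL7 acts, 9 were tested, 1 rose and none fell (over all genes 5.33% and 2.63%). Their median log2 fold change was 0.033. Rbpj, the DNA-binding partner of Notch, rose from 162 ± 12.3 to 191 ± 8.99 CPM (log2 fold change 0.24, edgeR, Benjamini-Hochberg adjusted p = 0.00561). Notch1, which is also a neighbour of Egfl7, was at 169 ± 4.92 and 173 ± 4.80 CPM and was not called. No gene of this list was lower at an unadjusted p under 0.05, by DESeq2 or by limma-voom.

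**Figure D4:**
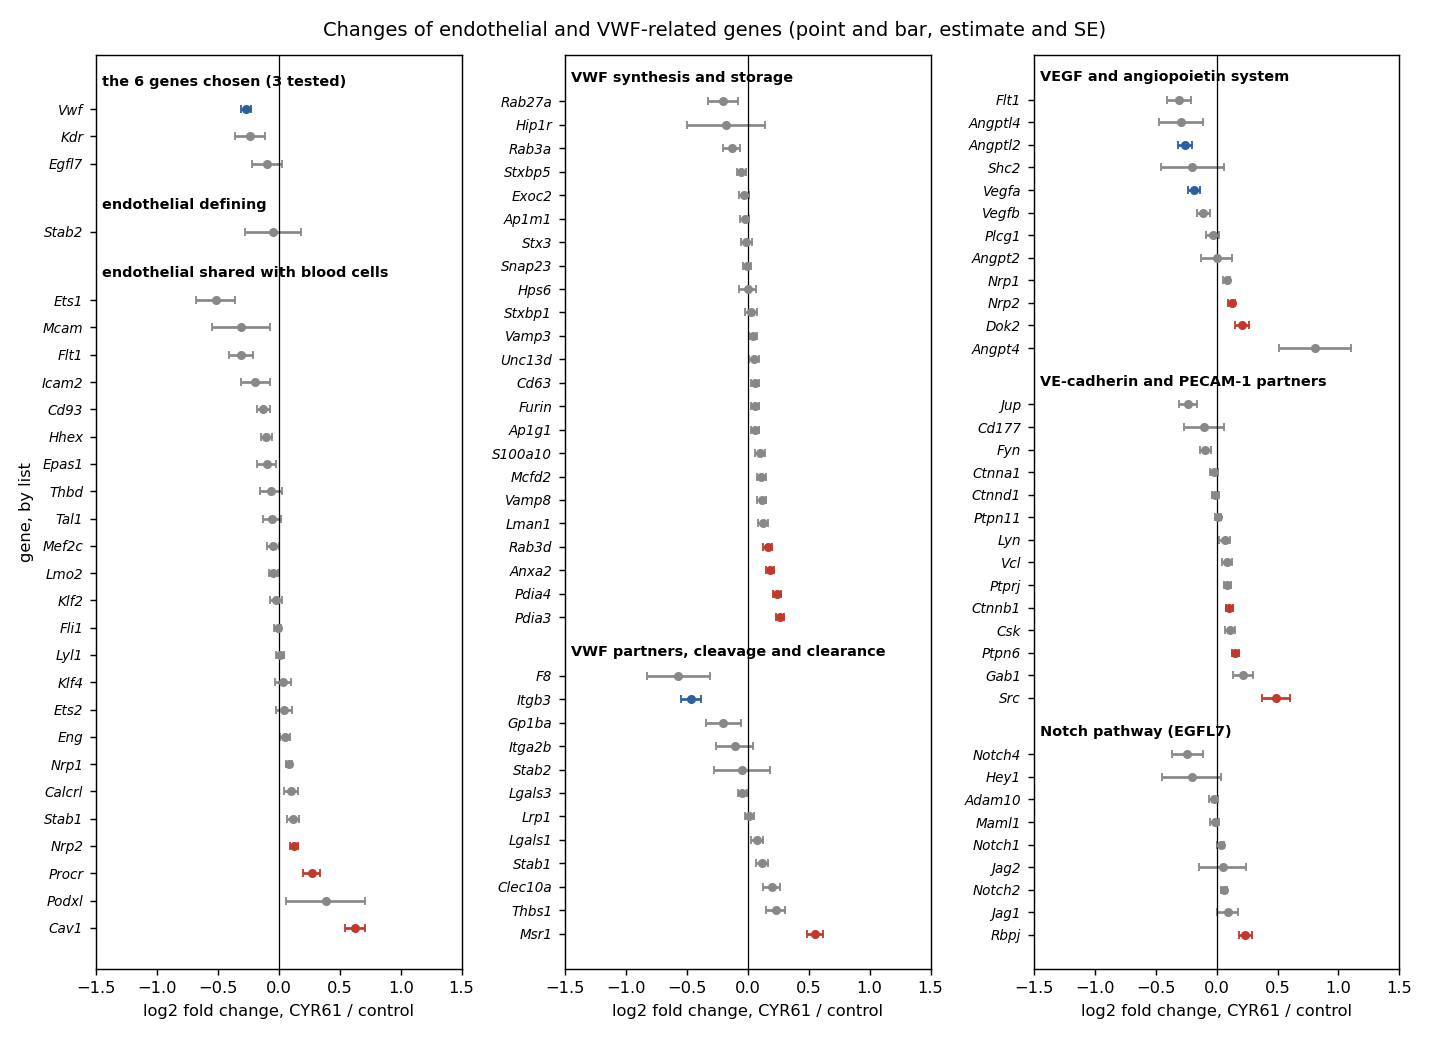
Log2 fold change of CYR61 against control for each tested gene of the chosen genes, the endothelial lists and the pathway lists (point, estimate; bar, SE; red, called higher; blue, called lower; grey, not called). Vwf is at -0.27 and most genes of the lists lie near 0. In TMM scaling the called genes of the synthesis, shared endothelial, VE-cadherin and Notch lists lie above 0.

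Markers of other cells that a marrow culture could hold were read beside Vwf. Of 15 megakaryocyte and platelet markers 5 were tested, 1 rose and none fell (over all genes 5.33% and 2.63%). Their median log2 fold change was -0.20, against -0.0076 over all genes. Gp1bb and Gp6 were at 0 counts in all libraries. The summed level of the 15 markers was 12.0 to 14.9 CPM in controls and 14.5 to 17.8 CPM with CYR61, below that of Vwf alone. Pf4, a platelet chemokine gene, rose from 4.20 ± 1.15 to 7.54 ± 0.816 CPM (log2 fold change 0.83, edgeR, Benjamini-Hochberg adjusted p = 0.00272). The megakaryocyte receptor genes Gp1ba (2.94 ± 0.300 and 2.57 ± 0.520 CPM) and Itga2b (2.82 ± 0.377 and 2.61 ± 0.555 CPM) were not called. Treml1 (2.83 ± 0.351 and 2.45 ± 0.227 CPM) and Clec1b (0.630 ± 0.190 and 0.394 ± 0.0919 CPM, 5 to 15 counts) were not called either. The log2 fold changes of these 4 genes were all below 0, as that of Vwf was. They were -0.20 for Gp1ba, -0.10 for Itga2b, -0.21 for Treml1 and -0.65 for Clec1b.

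In 3 of the other marker lists the summed levels of the groups did not overlap. The lymphocyte sum was lower with CYR61, as Vwf was, and the granulocyte and mast cell sum and the macrophage sum were higher. Beside the calls below, 5.33% of all genes tested were called higher and 2.63% lower. Of 10 lymphocyte markers 2 were tested and 1 fell, with a sum of 55.7 to 68.4 CPM in controls and 46.4 to 50.8 with CYR61, and with Cd3e and Ncr1 among those at 0 counts. This was nearly all Ighm, the IgM heavy chain gene, which fell from 61.3 ± 4.20 to 47.3 ± 2.16 CPM (log2 fold change -0.37, edgeR, Benjamini-Hochberg adjusted p = 9.66e-05). Of 13 granulocyte and mast cell markers 1 was tested and rose, S100a8 (0.970 ± 0.264 to 1.69 ± 0.153 CPM; edgeR, Benjamini-Hochberg adjusted p = 0.0213), and the sums were 0.785 to 1.45 and 1.83 to 2.32 CPM. That call was lost without CYR61 replicate 2 (adjusted p = 0.0506), 3 (0.0754) or 4 (0.0586). Most of both sums was S100a8. The other 12 granulocyte and mast cell markers held at most 10 counts in any library, with 3 of them, among these Ly6g, at 0 in all. S100a9 had 0 to 2 counts per library. Of the 12 macrophage markers 7 rose and 1 fell, with the lowest p for Fcgr1, a high-affinity IgG receptor gene (101 ± 9.13 to 164 ± 7.41 CPM), Itgam, Aif1 (16.9 ± 1.81 to 25.2 ± 2.35 CPM), Adgre1, the F4/80 gene (744 ± 31.9 to 918 ± 72.4 CPM), and Lyz2, lysozyme (log2 fold change 0.18). Itgam, the integrin alpha M chain that binds CYR61, rose from 537 ± 26.1 to 703 ± 33.1 CPM, and Cd163, the haemoglobin scavenger receptor gene, fell from 18.6 ± 1.32 to 14.7 ± 1.53 CPM. The part of these markers in the lower Vwf level was not tested.

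Of the cells that accompany vessels in marrow, fibroblast markers left few counts, and some mural markers were low but present in each library. Of 12 fibroblast and stromal markers 1 was tested, and the sum was 0.693 to 2.17 CPM in controls and 0.822 to 1.97 with CYR61. Of 10 mural and smooth muscle markers 3 were tested, with sums of 6.24 to 10.0 and 7.15 to 9.74 CPM. These 3 were Cspg4 (58 to 114 counts per library), Acta2 (23 to 52) and Tagln (7 to 31). The mural sums lay above those of the 30 defining endothelial genes, 2.64 to 4.13 CPM in controls and 2.86 to 3.99 with CYR61. None of these genes was called by edgeR's quasi-likelihood test, by DESeq2 or by limma-voom, and none had an unadjusted p under 0.05. The groups overlapped in both sums.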

How the data were processed

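Per the labels' protocols, total RNA was depleted of ribosomal RNA, primed with random hexamers and sequenced as paired reads. Ribosomal RNA removal keeps unspliced RNA, which a gene's count can include. DRAGEN was used upstream, per the submitters' processing notes; the sources used here do not give its role, the build or the annotation, and no coordinates are printed. The authors deposited expected counts (estimated counts per Ensembl gene, not normalized) in 55774 rows, of which 287 that repeated an ID were dropped. A second table deposited by the authors holds log2 fold changes with their limits, log2 CPM per library, p-values and scores. Of it the log2 fold changes of Vwf, Kdr and Egfl7 and their limits were used.

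Rounded expected counts entered edgeR 4.0.16 under R 4.3.3 (filterByExpr defaults, TMM, glmQLFit and glmQLFTest, 4 CYR61 against 7 control libraries, no covariates). Two-sided p-values were adjusted over 15135 genes by Benjamini-Hochberg, with a threshold of 0.05, and no p is given for the 6 genes. The script was tested on simulated counts. Lengths came from GENCODE M21, which may not be the authors' annotation; 99.8% of tested IDs matched. Correlations used log2 CPM with a prior count of 2. A total of 14912123 to 21047654 counts per library makes 3 counts, the most that a count of 0 allows, worth 0.14 to 0.197 CPM, for counting error only.

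The 6 genes and the 13 gene and marker lists were chosen with earlier results of these data known. The genes named are all called genes of a list, or the 5 of lowest p where more were called; the 5 most like Vwf over 11 and over 7 libraries; the genes beside Vwf; and others chosen after their values were seen. Tried as alternatives were RLE factors, library size alone, TMM without mitochondrial genes, a minimum mean of 1 CPM, no filter, DESeq2 1.42.0, limma-voom (limma 3.58.1), the replicate number as a block, leaving out each library, and leaving out CYR61 replicates 1 and 4.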

Additional observations from a re-analysis of the deposited data

Results flagged for a closer look

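In groups of 4 to 10 libraries, a library was singled out when its gap to the nearest other library was a large share of the group's range (Dixon's criterion at 95%). Of 108 groups looked at, over 54 genes and sums, 7 had such a library, and chance alone gives some at this level.

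Among the 6 genes this touched Tek, with 0.176 CPM in CYR61 replicate 3, from 3 counts, and 0 in the other CYR61 libraries. CYR61 replicate 1 held the lowest Pdia4 level of its group, 75.3 CPM against 78.0 to 78.6. The same library held the lowest Msr1 level, 96.4 CPM against 116.5 to 118, and the highest Vegfa level, 85.8 CPM against 71.5 to 73.1. CYR61 replicate 4 held the highest level of Cd9, the coding neighbour of Vwf, at 265 CPM against 234.4 to 234.6. In control replicate 2 Cit was lowest, 45.3 CPM against 49.3 to 51.5. In control replicate 1 the summed level of the VE-cadherin and PECAM-1 partners was lowest, 2121 CPM against 2173 to 2209.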

How the results depend on the processing

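The log2 fold change of Vwf was below 0 in 21 of 21 alternatives (-0.33 to -0.24), that of Kdr in 21 (-0.35 to -0.16) and that of Egfl7 in 20 (-0.18 to 0.03). Scaling by library size alone gave 529 genes higher and 938 lower, 1 higher and 3 lower among the endothelial genes shared with blood cells, 0 VEGF and angiopoietin genes higher, 1 VE-cadherin and PECAM-1 partner lower, and r = -0.0507 of Vwf with Egfl7. Without CYR61 replicates 1 and 4, 1 shared endothelial gene and 0 VEGF and angiopoietin genes were higher. Without the filter 2 partners of von Willebrand factor were higher and 1 shared endothelial gene lower, and DESeq2 called 2 Notch genes higher and 1 shared endothelial gene lower. Leaving out each library gave 583 to 903 genes higher and 205 to 469 lower, the fewest lower without CYR61 replicate 2. It gave 4 to 7 genes of synthesis and storage higher (7 without CYR61 replicate 1), 1 to 2 partners of the factor higher, 0 to 2 VEGF and angiopoietin genes higher and 1 to 3 lower, and 2 to 3 shared endothelial genes higher and 0 to 1 lower. VE-cadherin and PECAM-1 partners were 2 to 4 higher and 0 to 1 lower. The r with Vwf in controls ran from -0.0598 to 0.633 for Kdr, -0.228 to 0.302 for Egfl7 and 0.136 to 0.656 for the 30 defining genes. Beyond the losses already given, scaling by library size alone ended the calls of Dok2 (edgeR, Benjamini-Hochberg adjusted p = 0.0989) and Ctnnb1 (0.231), no filter those of Ctnnb1 (0.0670) and Iqsec1 (0.0609), and leaving out CYR61 replicates 1 and 4 those of Dok2 (0.0819), Ctnnb1 (0.0685) and S100a8 (0.103). The cause of these shifts was not tested.

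Replicate numbers 1 to 4 occur in both groups, but no source says that they mark a shared animal or day. The deviations of same-numbered libraries from their group means correlated at -0.034 to 0.034, 0 of 4 pairs over 0.1, and 1 of 4 numbers matched best with itself. With the number as a block (8 libraries) 811 genes were higher and 450 lower, against 829 and 438 in the same libraries without the block. Under the block and without it, 3 partners of von Willebrand factor and 1 VEGF or angiopoietin gene were higher, and the log2 fold change of Vwf was -0.25. The call of Iqsec1 was lost with the block (edgeR, Benjamini-Hochberg adjusted p = 0.0682) and in the same libraries without it (0.0510).

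Depth limits the values of Tek, Pecam1, Cdh5 and 29 of the 30 defining endothelial genes, which did not pass the filter and were not tested. Among these 29 the groups did not overlap in CPM for Aplnr, with a highest control of 0.0495 and a lowest CYR61 library of 0.0546. In counts they overlapped, at 1, 2, 1 and 1 in the CYR61 libraries and at most 1 in controls.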
